A study of Homo sapiens with 6 samples.

Results

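The comparison described here is between cardiomyocytes given alcohol together with losartan and untreated cardiomyocytes. Its members were chosen by the treatment in the sample labels alone and are 4 of the 6 RNA sequencing libraries of the series. The 2 control libraries are labelled as having had no treatment. The 2 co-treated libraries came from cells held for 24 h in 100 mM alcohol with 1 µM losartan. The other 2 libraries, from cells given 100 mM alcohol alone for 24 h, stand outside the contrast, but they entered the filter on low counts, the scaling and the estimate of the spread, and their values are set beside it. All 6 libraries were labelled as cardiomyocytes made from induced pluripotent stem cells (hiPSC-CMs) of the line H9, which is known as a line of human embryonic stem cells. No allele or transgene is named in the labels, and all libraries came from this 1 line. The labels and the methods of the study describe the losartan as given with the alcohol, while its results call it both a co-treatment and a pretreatment. Losartan without alcohol was not analysed here, so the parts of alcohol and of losartan in any difference below cannot be told apart within this contrast.

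Losartan occupies the type 1 receptor of angiotensin II (AT1R, encoded by AGTR1) and keeps the hormone from signalling through it. In the heart, angiotensin II is known to act on contraction, growth and the matrix, and it is made from angiotensinogen (AGT) by renin and angiotensin-converting enzyme. Cardiomyocytes differentiated from stem cells beat and hold sarcomeres, yet they resemble fetal more than adult cells and often keep smooth muscle actin and natriuretic peptide transcripts. Alcohol is oxidised in cells to acetaldehyde and acetate, and at high doses it weakens heart muscle. The question of the comparison is which transcripts stood apart from the untreated state when both agents were present.

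Expected counts, which are estimates of the reads of each gene, summed to between 4898287 and 5051448 per library, so the 6 libraries were of nearly equal depth. A count of 0 allows up to 3 counts, which was 0.594 to 0.612 CPM (counts scaled to library size) in these libraries. Levels are given as FPKM, the expected count corrected for transcript length and for library size. Of the 21134 genes in the deposited table, 14926 had enough counts to be tested. The defining cardiomyocyte markers were abundant in every library, with MYL7 (atrial myosin light chain) at 10240 to 16180 FPKM and TNNT2 (troponin T) at 3194 to 3728 FPKM. Markers of 6 other cell types were also summed in each library. The fibroblast and epicardial list gave 468 and 422 FPKM in the controls, and 519 and 469 FPKM after co-treatment. Sums for endothelial, pluripotent, endoderm and liver, and neural markers lay between 8.53 and 81.7 FPKM in the 4 libraries compared, and no marker that the table listed was at 0 in all 6 libraries. The smooth muscle list, at 1030 to 1970 FPKM, is given below beside the gene it touches.

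AGTR1 itself, the receptor gene that losartan addresses, held 0 counts in both controls and 0 and 2 counts in the co-treated libraries. These counts lie within the limit that a count of 0 allows, and the gene was not tested. AGT was present in every library, at 17.0 and 20.0 FPKM in the controls and 25.4 and 25.3 FPKM with alcohol and losartan. Both co-treated libraries lay above both controls for AGT, but the difference (log2 0.41 ± 0.13 SE) did not pass the test (adjusted p = 0.221). By RT-PCR and Western blot, the study reported that AT1R rose after alcohol alone. Whether the labelled dose acted on the receptor cannot be read from the values given here.

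With alcohol and losartan, 54 genes differed from the controls at an adjusted p under 0.05, which is 0.362% of the genes tested. Of these, 32 rose (0.214% of genes tested) and 22 fell (0.147%). The genes that rose included ABCA1 of lipid export, PHYH and EPHX2 of lipid breakdown, and MFAP4 and COL14A1 of the matrix. SLC44A2 and SLC29A1, which act in membrane transport, and the clock gene PER3 rose too. Those that fell included ACTA2, ANKRD1, SPRY4, the p53 targets CDKN1A and AEN, and several genes of secreted factors. Protein-coding genes made up 52 of the 54, and their share of all genes tested was not worked out. The test was the quasi-likelihood F test of edgeR, two-sided, with Benjamini-Hochberg adjustment over the 14926 genes. Before adjustment, 934 genes were higher (6.26%) and 951 were lower (6.37%) with a p under 0.05. Across the genes tested the median log2 fold change was -0.0016, which the scaling of the libraries sets near 0.

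Each of the 54 called genes had both co-treated libraries on the same side of both controls, and so did many genes that were not called. Both co-treated libraries lay above both controls in 3220 genes (21.6% of those tested) and below them in 3236 (21.7%). With 2 libraries a group, an exact permutation test of 1 gene cannot give a two-sided p below 0.333, so the calls rest on the spread shared across genes and libraries. The number of calls leaned on single libraries: it was 4 without co-treated replicate 1, 2 without co-treated replicate 2, 38 without control replicate 1 and 29 without control replicate 2. Leaving out alcohol replicate 1 or 2 gave 184 and 151 calls, with 15446 and 15404 genes tested. The direction of all 54 genes was kept in every one of these fits. Because their groups do not overlap, this was all but fixed beforehand and says nothing on stability.

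**Figure D1:**
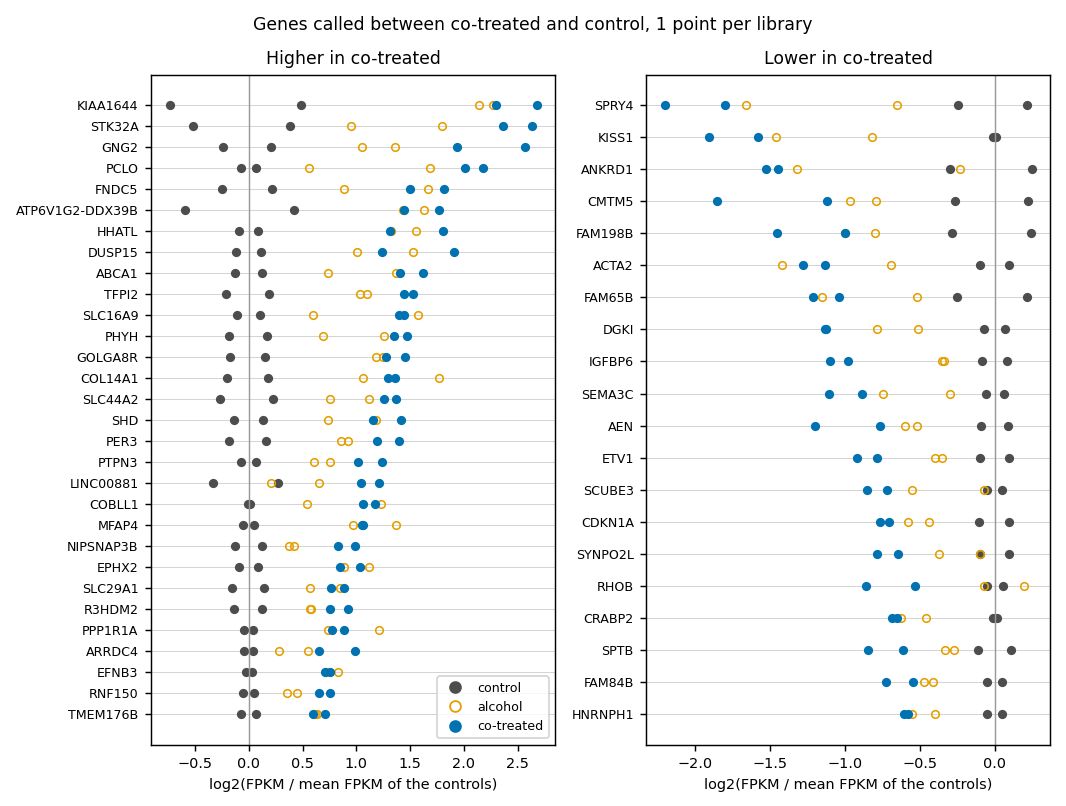
Each row is a called gene and each point is the log2 ratio of 1 library's FPKM to the mean of the 2 controls, with controls in grey, alcohol alone as open orange circles and co-treated in blue. The plot holds 50 called genes with a value above 0 in every library, 30 higher and 20 lower, and in each row both blue points lie on one side of both grey points.

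ABCA1 encodes the transporter that hands cellular cholesterol to apolipoprotein A-I. ABCA1 stood at 3.89 and 3.28 FPKM in the controls and at 10.99 and 9.49 FPKM in the co-treated libraries. The lower co-treated library was thus well above the higher control, and the rise was 2.76-fold (log2 1.47 ± 0.18 SE, adjusted p = 0.0052). Alcohol alone held 5.99 and 9.24 FPKM. ABCA1 is a classic target of the liver X receptors (LXR), nuclear receptors that sense oxysterols, and its promoter is shown because that element lies in it. The sequence is the 250 bases before the RefSeq start on the minus strand of chromosome 9 (chr9:104928156-104928405, GRCh38.p14), 5′ to 3′.

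ABCA1: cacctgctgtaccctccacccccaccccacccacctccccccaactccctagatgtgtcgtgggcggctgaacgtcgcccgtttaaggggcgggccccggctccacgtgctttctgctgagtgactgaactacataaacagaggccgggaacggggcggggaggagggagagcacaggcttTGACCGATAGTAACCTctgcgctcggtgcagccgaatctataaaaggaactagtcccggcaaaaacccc

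Capitals mark the match to the half-sites AGGTTA and CGGTCA set 4 bases apart, searched on both strands, which begins 69 bases before the start. It was found in 1 of the 35116 promoter windows of this table (0.00285%), each running from 250 bases before to 50 after a start. The letters searched were those of the ABCA1 element itself, so this count only places the element and is no test.

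The list of cholesterol efflux and LXR target genes had 11 members tested, of which ABCA1 rose and none fell. Of the 11, 9 were higher and 2 lower, with a median log2 fold change of 0.27. At an unadjusted p under 0.05, 4 members were higher and none lower, where all genes gave 6.26% and 6.37%. ABCG1, which moves cholesterol to HDL particles, had 2.71 and 2.33 FPKM in the controls against 6.41 and 5.05 FPKM (log2 1.14, adjusted p = 0.0787). PLTP, the phospholipid transfer protein, and SMPDL3A, an LXR-responsive phosphodiesterase, had log2 differences of 0.42 and 0.80 and did not pass (adjusted p = 0.29 and 0.375).

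Genes of cholesterol synthesis and uptake lay on the other side of the controls. In this list of 25 tested genes, which SREBP2 is known to control, none passed the adjusted test, 22 were lower and 3 higher, and the median log2 fold change was -0.42. At an unadjusted p under 0.05, 16 members were lower and none higher, where all genes gave 6.37% and 6.26%. Leaving out 1 control or co-treated library gave medians from -0.52 to -0.30, with 21 to 23 members lower. The groups of 19 members do not overlap, so their direction in these fits was all but fixed beforehand and says nothing on stability. All 27 listed genes summed to 1110 and 1290 FPKM in the controls and 899 and 962 FPKM after co-treatment. Alcohol alone held 922 and 761 FPKM. Both co-treated libraries were below both controls for 19 of the 25, against 21.7% of all genes. The early steps of the pathway were among the larger differences. ACAT2 went from 47.2 and 57.2 FPKM to 28.7 and 31.3 FPKM, and HMGCS1 from 92.0 and 113 FPKM to 53.8 and 69.4 FPKM (adjusted p = 0.123 and 0.0911).

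MVD, the mevalonate decarboxylase, had the lowest log2 value of the list, with 23.9 and 31.1 FPKM in the controls and 16.1 and 14.4 FPKM in the co-treated libraries (log2 -0.90, adjusted p = 0.0949). FDFT1, which makes squalene, differed by log2 -0.51 (adjusted p = 0.133). Fitted on the 4 libraries of the 2 groups alone, 4 members of the list passed, all lower. That fit called 158 of 14662 genes, 81 of them lower. No member passed with DESeq2, with a term for replicate number, or with limma on FPKM. The sterol regulatory element TCACNCCAC, searched on both strands, was found in 1 of the 19 list genes that have a promoter window (SREBF2) and for 1.39% of all genes with one (1.13% of all windows).

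**Figure D2:**
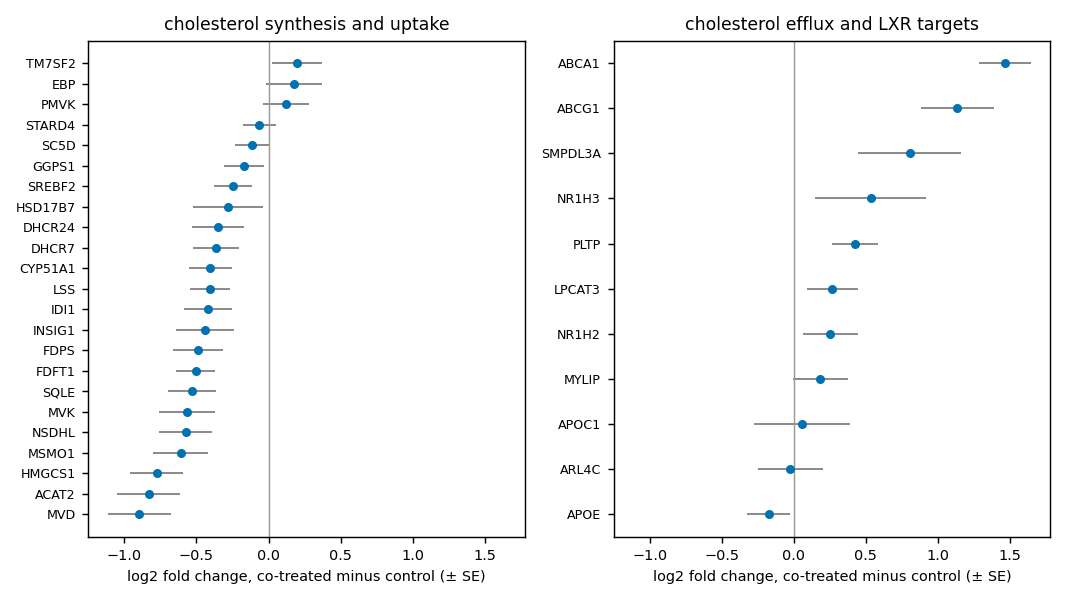
Points are the log2 fold change of co-treated over control for each member drawn, with bars of 1 SE, for 23 genes of cholesterol synthesis and uptake (left) and 11 of efflux and LXR targets (right). On the left 20 of 23 points lie below 0, while on the right 9 of 11 lie above 0, with ABCA1 highest at 1.47.

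Other genes of lipid handling rose as well. PHYH, the peroxisomal hydroxylase that starts the breakdown of phytanic acid, had 13.2 and 10.4 FPKM in the controls and 30.1 and 32.6 FPKM with alcohol and losartan. It rose 2.56-fold (log2 1.36 ± 0.20 SE, adjusted p = 0.0145), and alcohol alone held 19.0 and 28.3 FPKM. EPHX2, the soluble epoxide hydrolase that inactivates epoxides of fatty acids, rose from 8.91 and 10.0 FPKM to 17.0 and 19.3 FPKM (adjusted p = 0.0449). SLC44A2, a choline transporter-like protein, was among the more abundant risers, at 33.1 and 46.6 FPKM against 95.4 and 103 FPKM. Its rise was 2.43-fold (log2 1.28 ± 0.16 SE, adjusted p = 0.0052). NIPSNAP3B rose 1.84-fold, but its annotated span overlaps that of ABCA1, and without a stated strand the reads of overlapping genes may be split between them.

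A list of 18 tested peroxisomal lipid enzymes, which was drawn up after the values of PHYH and EPHX2 were seen, held these 2 calls. Of its members 12 were higher and 6 lower, with a median log2 value of 0.11, and PECR (log2 1.06) and ACOX3 (log2 -0.46) did not pass. None of the 28 genes of fatty acid oxidation and ketone metabolism passed. Their median log2 value was 0.11, and the smallest p values belonged to the lipid droplet gene PLIN2 (log2 0.35), HADH (0.37), ACADS (0.66) and OXCT1 (-0.32). For fatty acid synthesis and desaturation none of 17 passed, and the median was -0.20. FASN, the fatty acid synthase, differed by log2 -0.65, ACLY by -0.53, FADS3 by -0.67 and FADS2 by -0.37.

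**Figure D3:**
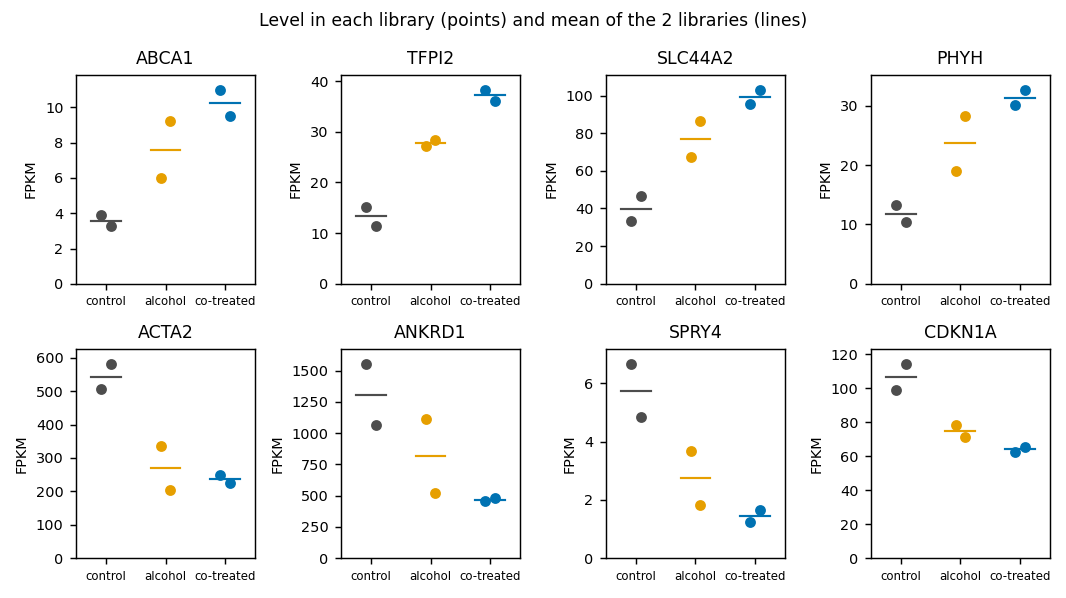
Each panel shows FPKM in the 2 libraries of control, alcohol alone and co-treated cells, with the mean of the 2 as a line and the axis starting at 0. For ABCA1, TFPI2, SLC44A2 and PHYH both co-treated points lie above both controls, and for ACTA2, ANKRD1, SPRY4 and CDKN1A both lie below them.

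Among genes of secreted and matrix proteins, TFPI2 had the smallest p of the genes that rose. TFPI2 encodes a protease inhibitor held in the extracellular matrix. It measured 15.1 and 11.4 FPKM in the controls and 38.3 and 36.1 FPKM in the co-treated libraries, or 13.3 ± 2.60 against 37.2 ± 1.52 (mean ± SD, n = 2). This was a 2.70-fold rise (log2 1.43 ± 0.15 SE, adjusted p = 0.0024). Alcohol alone held 27.3 and 28.4 FPKM, between the other groups. It was called in 12 of the 15 alternative fits, with an adjusted p of 0.0706 at most.

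MFAP4, a glycoprotein of elastic fibres, rose from 26.7 and 25.0 FPKM to 54.0 and 53.6 FPKM (2.02-fold, adjusted p = 0.0108). COL14A1, a collagen that sits on the surface of fibrils, rose 2.43-fold, from 6.94 and 5.32 FPKM to 15.1 and 15.8 FPKM (adjusted p = 0.0203). Alcohol alone held 50.7 and 66.9 FPKM for MFAP4 and 12.8 and 20.9 FPKM for COL14A1. These were the only calls among 36 collagen and matrix genes, of which 17 were higher and 19 lower, with a median log2 value of -0.03. FBN2, a fibrillin, and COL6A1 had log2 values of -0.58 and 0.59 and did not pass (adjusted p = 0.0787 and 0.0833). Of the 8 fibroblast and epicardial markers tested, with the sums given above, 6 were higher and 2 lower, with log2 values from -0.60 to 0.37 and a median of 0.07, and their part in the matrix results was not tested.

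None of the 23 TGF-beta and profibrotic genes passed, and 16 of them were lower. The ligand gene TGFB2 had 31.4 and 29.4 FPKM in the controls against 21.9 and 23.6 FPKM (log2 -0.46, adjusted p = 0.127). CYR61, a matricellular protein gene, LTBP2 and TGFBI had log2 values of -0.60, 0.70 and -0.57.

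PER3, a period gene of the circadian clock, rose 2.36-fold, from 1.27 and 1.61 FPKM to 3.80 and 3.28 FPKM (log2 1.24 ± 0.22 SE, adjusted p = 0.0306). The co-treated libraries did not overlap the controls, as was so for every called gene, and alcohol alone held 2.60 and 2.73 FPKM. Within the cell the clock is a feedback loop in which CLOCK and BMAL1 switch on period and cryptochrome genes, while PAR bZIP factors act through a D-box. The promoter of PER3 is shown because it holds such a box, in the 250 bases before a start on the plus strand of chromosome 1 (chr1:7784041-7784290, GRCh38.p14). PER3 has 2 starts in RefSeq, and the start was picked by the number of matches before it.

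PER3: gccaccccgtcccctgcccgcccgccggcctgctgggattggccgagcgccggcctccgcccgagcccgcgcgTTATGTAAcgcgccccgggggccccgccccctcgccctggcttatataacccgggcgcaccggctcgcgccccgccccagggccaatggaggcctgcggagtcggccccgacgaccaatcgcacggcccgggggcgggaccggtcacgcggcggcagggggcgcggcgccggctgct

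Capitals mark TTATGNAA, searched on both strands, which begins 177 bases before the start. The motif was found for 3 of the 17 clock genes with a promoter window (NR1D2, PER1 and PER3) and for 4.11% of all genes with one (3.3% of all windows), and it was chosen after the values were seen.

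Of 17 clock genes tested, PER3 was the called member, 15 were higher and 2 lower, and the median log2 value was 0.36. At an unadjusted p under 0.05, 4 were higher and 1 was lower, where all genes gave 6.26% and 6.37%. The nuclear receptor gene NR1D2 had 10.2 and 12.05 FPKM in the controls and 16.0 and 18.8 FPKM in the co-treated libraries (log2 0.58, adjusted p = 0.0896). CRY2 and CIART, which both repress CLOCK and BMAL1, had log2 values of 0.46 and 0.70. CRY1, the other cryptochrome, lay lower at log2 -0.38. The hour at which each culture was harvested is not given in the sources used here, and its part was not tested.

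Several risers act at the membrane or in signalling. STK32A, a serine/threonine kinase gene, rose 4.81-fold from 1.23 and 0.66 FPKM to 4.86 and 5.88 FPKM (log2 2.26 ± 0.29 SE, adjusted p = 0.0063). Alcohol alone held 1.83 and 3.29 FPKM. GNG2, a gamma subunit of G proteins, rose from 0.45 and 0.61 FPKM to 2.03 and 3.14 FPKM, which rests on 9 and 12 counts in the controls. HHATL, a protein of the sarcoplasmic reticulum in striated muscle, rose 2.89-fold from 5.40 and 4.78 FPKM to 17.8 and 12.7 FPKM (adjusted p = 0.0141). DUSP15, a dual-specificity phosphatase, rose 2.77-fold to 32.4 and 20.4 FPKM. FNDC5, the precursor of irisin, rose 3.20-fold from 2.56 and 3.53 FPKM to 8.61 and 10.7 FPKM. All 5 had both co-treated libraries above both controls, as did every called gene that rose and 21.6% of all genes tested.

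PCLO, known as a scaffold of presynaptic active zones, rose 4.14-fold but stayed low, at 0.29 and 0.32 FPKM against 1.23 and 1.38 FPKM. KIAA1644 rose 5.43-fold from 0.35 and 0.15 FPKM to 1.60 and 1.23 FPKM, on 12.2 and 5.02 expected counts in the controls. SLC16A9, of the monocarboxylate transporter family, rose 2.58-fold to 7.50 and 7.76 FPKM. GOLGA8R rose 2.49-fold to 4.63 and 5.25 FPKM, yet it belongs to a family of near-identical copies. Its relatives GOLGA8A and GOLGA8B had log2 values of 0.26 and 0.38 without passing, so how reads were divided among the copies is uncertain.

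The risers that follow, and SLC44A2 and NIPSNAP3B above, lay outside the naming rule and were named after their values were seen. SLC29A1, which carries nucleosides including adenosine, rose 1.73-fold to 32.1 and 34.8 FPKM. PPP1R1A, an inhibitor of protein phosphatase 1, rose 1.72-fold from 48.2 and 51.0 FPKM to 84.7 and 91.7 FPKM. The ephrin ligand EFNB3 rose 1.61-fold, from 32.0 and 33.1 FPKM to 53.3 and 54.96 FPKM. ARRDC4, an arrestin-domain protein, rose 1.72-fold from 18.7 and 17.7 FPKM to 28.7 and 36.0 FPKM. Its relative TXNIP, at 179 and 188 FPKM against 286 and 349 FPKM, narrowly missed (log2 0.74, adjusted p = 0.0506).

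LINC00881, an intergenic noncoding RNA, was the most abundant riser, at 178 and 118 FPKM in the controls and 305 and 342 FPKM with alcohol and losartan (2.12-fold, adjusted p = 0.035). The adaptor SHD, the tyrosine phosphatase PTPN3, COBLL1, R3HDM2, RNF150 and TMEM176B were others of the group, with rises of 1.53-fold to 2.37-fold.

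ACTA2, the smooth muscle actin that immature cardiomyocytes also express, stood at 507 and 580.2 FPKM in the controls and at 248 and 224 FPKM in the co-treated libraries. The groups were far apart, at 544 ± 51.8 against 236 ± 16.8 FPKM (mean ± SD, n = 2), a 2.38-fold fall (log2 -1.25 ± 0.20 SE, adjusted p = 0.0203). Alcohol alone held 337 and 203 FPKM. ANKRD1, a stretch-responsive repressor found in the sarcomere and the nucleus, fell 2.89-fold, from 1551 and 1062 FPKM to 455 and 480 FPKM (log2 -1.53 ± 0.29 SE, adjusted p = 0.041). It did not pass with DESeq2 (adjusted p = 0.136), with edgeR without a filter (adjusted p = 0.0942) or with limma on FPKM. It did pass with DESeq2-type size factors, the stricter filter, a term for replicate number, and the 4 libraries alone. Its alcohol-alone libraries held 1114 and 524 FPKM, so 1 of them lay within the range of the controls.

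The promoters of these 2 genes are shown because elements for SRF and TEAD factors, which read the state of actin and of cell tension, are known in muscle genes. Both lie on the minus strand of chromosome 10, at chr10:88952774-88953023 for ACTA2 and chr10:90921088-90921337 for ANKRD1 (GRCh38.p14), and both are the 250 bases before a RefSeq start. ACTA2 has 2 starts, of which 1 was picked by the number of matches before it, and ANKRD1 has 1 start. In ACTA2 capitals mark the 2 CArG boxes, here taken as CC and GG around 6 bases of which at least 5 are A or T, and in ANKRD1 they mark GGAATG, searched on both strands.

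ACTA2: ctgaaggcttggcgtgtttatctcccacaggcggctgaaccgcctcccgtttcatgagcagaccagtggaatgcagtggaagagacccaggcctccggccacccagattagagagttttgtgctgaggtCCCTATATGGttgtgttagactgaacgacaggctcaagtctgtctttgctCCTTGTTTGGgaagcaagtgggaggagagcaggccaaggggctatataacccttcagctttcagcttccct

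ANKRD1: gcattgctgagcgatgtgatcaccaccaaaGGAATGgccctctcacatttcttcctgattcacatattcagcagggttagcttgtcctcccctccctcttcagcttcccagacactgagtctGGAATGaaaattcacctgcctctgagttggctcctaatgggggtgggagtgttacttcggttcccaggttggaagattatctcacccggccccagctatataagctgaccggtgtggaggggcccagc

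The boxes of ACTA2 begin 121 and 71 bases before the start, and the matches of ANKRD1 begin 220 and 128 bases before it. CArG boxes of this form were found in 8.13% of all windows and GGAATG in 14.0%. The motifs were chosen after the values were seen, and a match is a description of letters and not evidence of binding.

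ACTA2 is also a marker of smooth muscle, and the 7 genes of that list were measured beside it. They summed to 1970 and 1730 FPKM in the controls and to 1030 and 1070 FPKM in the co-treated libraries, and 6 of the 7 were lower. TAGLN, which binds actin, had 998 and 826 FPKM against 431 and 532 FPKM (log2 -0.97, adjusted p = 0.127). MYH11, the smooth muscle myosin and the defining marker of the list, was low in every library, at 4.77 and 4.34 FPKM against 2.30 and 3.80 FPKM. CNN1 had overlapping groups (417 and 279 FPKM against 311 and 276 FPKM). In such bulk libraries fewer cells of a type and less RNA per cell cannot be told apart, and the part of smooth muscle-like cells in the fall of ACTA2 was not tested.

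RHOB, a small GTPase of the actin cytoskeleton, fell 1.66-fold, from 38.8 and 36.0 FPKM to 25.8 and 20.7 FPKM (adjusted p = 0.0449). The alcohol-alone libraries of RHOB, at 35.5 and 42.9 FPKM, lay at the level of the controls, yet the test of co-treated against alcohol alone did not pass (log2 -0.76, adjusted p = 0.314). SYNPO2L, an actin-binding protein of the Z-disc, fell 1.69-fold from 219 and 191 FPKM to 131 and 119 FPKM. FAM65B, which holds back the GTPase RhoA, fell 2.29-fold from 13.9 and 10.1 FPKM to 5.84 and 5.18 FPKM. SPTB, a beta spectrin of the membrane skeleton, fell 1.63-fold to 6.17 and 5.23 FPKM.

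Of the lists for these themes, those of SRF and actin genes and of YAP and TEAD targets were added after values were seen. Of 10 natriuretic peptide and stretch genes, ANKRD1 was the called member, 9 were lower, and the median log2 value was -0.51. NPPB, the B-type natriuretic peptide gene, had 1721 and 1233 FPKM in the controls and 456 and 365 FPKM in the co-treated libraries (log2 -1.90, adjusted p = 0.0732). NPPA, the atrial peptide gene, had 3622 and 4799 FPKM against 2375 and 2966 FPKM (log2 -0.70, adjusted p = 0.113), and ACTA1, skeletal actin, differed by log2 -1.41. In the added list of SRF and actin genes, ACTA2 and RHOB fell, 17 of 20 were lower and the median was -0.30. FHL2, a LIM protein of the sarcomere, went the other way (275 and 236 FPKM against 416 and 441 FPKM, adjusted p = 0.0506). The added list of YAP and TEAD targets held ANKRD1 as its 1 call, with 16 of 21 lower and a median of -0.21. ARHGEF17 and AMOTL2 had log2 values of -0.59 and -0.55 there.

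SPRY4, a Sprouty inhibitor that MAP kinase signalling itself induces, fell 4.07-fold from 6.65 and 4.83 FPKM to 1.25 and 1.65 FPKM (log2 -2.03 ± 0.32 SE, adjusted p = 0.0203). Alcohol alone held 3.66 and 1.82 FPKM. ETV1, an ETS transcription factor induced by the same pathway and known in fast-conducting heart muscle, fell 1.87-fold, from 19.3 and 16.8 FPKM to 9.54 and 10.5 FPKM (adjusted p = 0.0113). DGKI, a diacylglycerol kinase, fell 2.26-fold from 14.7 and 16.2 FPKM to 7.08 and 7.06 FPKM (log2 -1.17 ± 0.15 SE, adjusted p = 0.0065). AREG, the EGF family ligand amphiregulin, fell from 1.86 and 4.21 FPKM to 0.16 and 0 FPKM (adjusted p = 0.0482). Behind the AREG values were 39 counts in the controls and 1 in the co-treated libraries, a ratio of 38.4 with a 95% exact interval of 6.49 to 1550 that covers counting error only.

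A list of MAP kinase activity genes was put together after SPRY4 had been seen to fall. All 9 of its tested members were lower, 6 of them at an unadjusted p under 0.05, with a median log2 value of -0.78, and SPRY4 was its 1 call. Of all 14926 genes, 7496 were lower, and 6.37% were lower at that threshold. SPRY2 had 18.7 and 15.6 FPKM in the controls and 10.2 and 10.7 FPKM with alcohol and losartan (adjusted p = 0.0787). DUSP6, the phosphatase that switches off ERK, and ETV5 had log2 values of -1.31 and -1.30, and EPHA2 had -0.78. Because the list was chosen on these libraries, its counts are no independent evidence. Of 21 immediate early genes, which overlap that list at DUSP6, AREG fell, 15 were lower and 6 higher. IER3 (log2 -0.76), KLF10 (0.65) and KLF2 (-1.38) did not pass.

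A pair of p53 targets fell. CDKN1A, which encodes the cell cycle inhibitor p21, went from 99.3 and 114 FPKM to 62.7 and 65.6 FPKM (1.71-fold, log2 -0.78 ± 0.12 SE, adjusted p = 0.0203). AEN, a nuclease induced by p53, went from 10.8 and 12.2 FPKM to 6.75 and 4.99 FPKM (2.02-fold, adjusted p = 0.035). Alcohol alone held 78.6 and 71.4 FPKM for CDKN1A and 7.99 and 7.58 FPKM for AEN. Of 24 p53 targets tested, 20 were lower and 4 higher, and 8 were lower at an unadjusted p under 0.05 with 1 higher. All genes gave 6.37% lower and 6.26% higher at that threshold. The list median was -0.23, SESN2 had a log2 value of -0.66, and BTG2, an antiproliferative gene, had 0.39. Neither passed.

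Genes of secreted and developmental factors also fell. KISS1, the precursor of kisspeptin, fell 3.43-fold from 28.3 and 28.7 FPKM to 9.54 and 7.61 FPKM (log2 -1.78 ± 0.27 SE, adjusted p = 0.0181), and alcohol alone held 10.4 and 16.2 FPKM. IGFBP6, which binds insulin-like growth factors, fell 2.12-fold, from 36.1 and 40.6 FPKM to 17.9 and 19.5 FPKM, with alcohol alone at 30.4 and 30.0 FPKM. SEMA3C, a semaphorin needed for the outflow tract, fell 2.05-fold from 15.5 and 14.3 FPKM to 6.90 and 8.06 FPKM. SCUBE3, a secreted co-receptor, fell 1.78-fold from 19.0 and 20.4 FPKM to 11.97 and 10.9 FPKM. CRABP2, which delivers retinoic acid to its receptor, fell 1.64-fold from 129 and 131 FPKM to 80.6 and 82.5 FPKM.

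CMTM5 fell 2.85-fold, from 15.4 and 21.6 FPKM to 8.52 and 5.13 FPKM, and FAM198B fell 2.39-fold, from 10.6 and 15.2 FPKM to 6.47 and 4.73 FPKM. HNRNPH1, a splicing factor, fell 1.56-fold from 107 and 114 FPKM to 74.0 and 72.4 FPKM. FAM84B fell 1.60-fold from 45.3 and 48.4 FPKM to 32.1 and 28.3 FPKM. CRABP2, HNRNPH1, FAM84B, SPTB, SYNPO2L and RHOB lay outside the naming rule and were named after their values were seen.

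The largest fitted differences belonged to gene models that share sequence with a neighbour. JMJD7-PLA2G4B, a read-through of 2 adjacent genes on chromosome 15, held 170 counts in the controls and 0 in the co-treated libraries, at least 27.9-fold lower. Its levels were 4.77 and 5.16 FPKM in the controls, 7.35 and 7.31 FPKM in alcohol alone and 0 in both co-treated libraries. Its partners moved against it without passing: PLA2G4B had 2.67 and 3.19 FPKM in the controls and 9.10 and 7.43 FPKM with alcohol and losartan (adjusted p = 0.0844), and JMJD7 had a log2 value of 0.70. FSBP held 0 counts in the controls and 104 in the co-treated libraries, at least 17.7-fold higher, and lies within RAD54B, whose log2 value was -1.05. ATP6V1G2-DDX39B rose 2.96-fold to 13.6 and 17.1 FPKM, while DDX39B had a log2 value of -0.35. Both bounds were set with the floor of 3 counts per library. In all, 15 of the 54 called genes overlap another gene of the table in the RefSeq annotation, ACTA2 and ABCA1 among them. The share over all genes tested was not worked out, so this count does not set the called genes apart. How the estimate divided reads between such models was not tested.

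None of 32 sarcomere and contraction genes passed, 27 were lower and 5 higher, and the median log2 value was -0.24. At an unadjusted p under 0.05, 9 were lower and 1 was higher, where all genes gave 6.37% and 6.26%. Both co-treated libraries were below both controls for 16 and above them for 3, against 21.7% and 21.6% of all genes. SMPX, a small muscle protein, had 443 and 407 FPKM against 264 and 301 FPKM (adjusted p = 0.0885). MYL3, XIRP1 and TNNC1 had log2 values of -0.54, -0.49 and -0.49, and MYL7 had -0.52. MYL2, the ventricular light chain, had 2139 and 863 FPKM in the controls and 2478 and 2862 FPKM in the co-treated libraries, and the test did not pass (adjusted p = 0.501). TNNT2 had a log2 value of -0.18. Summed over 10 cardiomyocyte markers, the levels were 25300 and 24900 FPKM in the controls and 20900 and 22700 FPKM in the co-treated libraries, with MYL7 the most abundant of them, and the part of cell composition was not tested.

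Calcium handling, channel and transcription factor lists held no call. Among 20 calcium genes the median was 0.05, and CASQ2, calsequestrin of the sarcoplasmic reticulum, had 10.7 and 7.15 FPKM against 4.73 and 5.48 FPKM (log2 -0.85, adjusted p = 0.136). CAMK2B, RYR2 and CASQ1 had log2 values of 0.42, 0.29 and -0.39. Of 20 cardiac ion channel genes 13 were higher, and the 4 smallest p values were for potassium channel genes or their partners. KCNIP2, a subunit of the transient outward current, had 11.1 and 13.8 FPKM in the controls against 24.0 and 22.3 FPKM (log2 0.96, adjusted p = 0.0776). KCNJ8, ABCC9 and KCNQ1 had log2 values of 0.79, 0.60 and 0.68. For 23 cardiac transcription factors the median was -0.0055, with TBX18 at log2 0.72, IRX4 at -0.51, ISL1 at 1.75 on fewer than 2 FPKM, and TBX3 at -0.56.

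**Figure D4:**
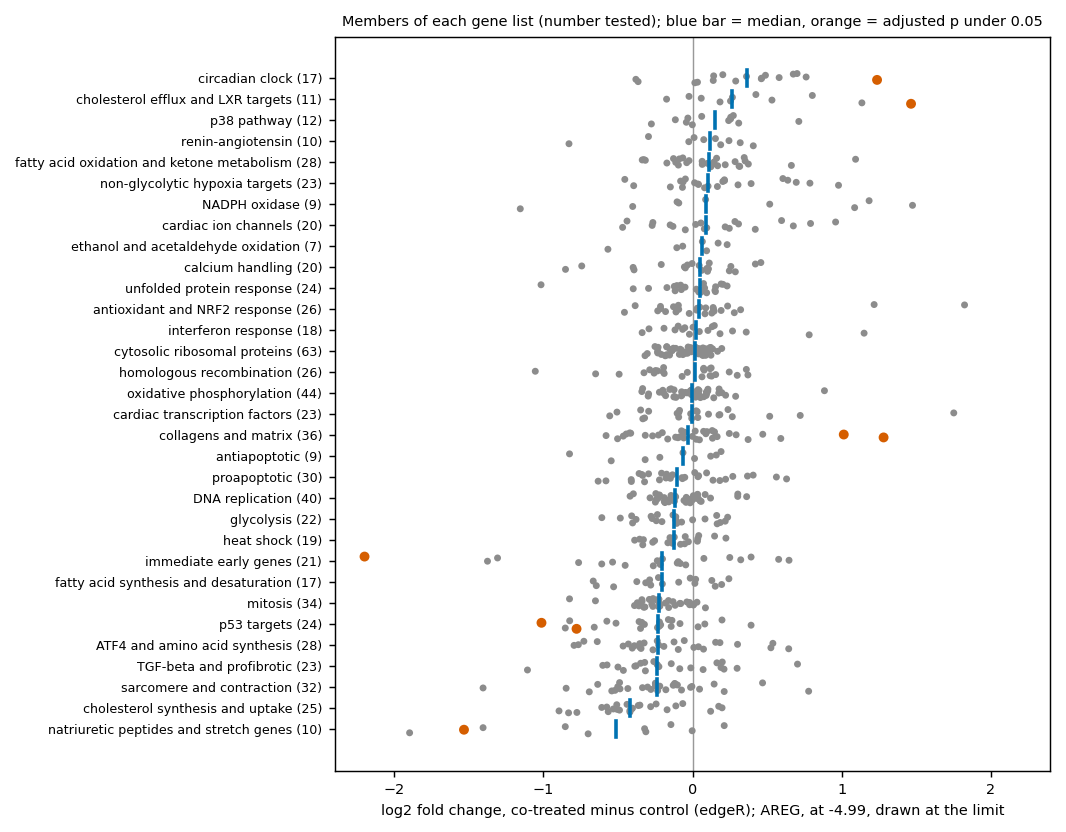
Each row is a gene list with its number of tested members, each point a member's log2 fold change of co-treated over control, the blue bar the list median, and orange points the members with an adjusted p under 0.05. Medians run from -0.51 for natriuretic peptide and stretch genes to 0.36 for clock genes, orange points occur in 6 lists, and AREG, at -4.99, is drawn at the left limit.

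Energy metabolism gave no call. The median log2 value of 22 glycolysis genes was -0.12, and HK1, PGAM1, ENO1 and PFKM had values of -0.40, -0.48, -0.61 and 0.22. GAPDH, often used as a reference gene, had 3604 and 3389 FPKM in the controls and 3801 and 3856 FPKM in the co-treated libraries (log2 0.08, adjusted p = 0.876). Of 23 other hypoxia targets 5 were higher and 1 lower at an unadjusted p under 0.05, where all genes gave 6.26% and 6.37%. Their median log2 value was 0.10, but -0.07 without control replicate 2. MXI1, a MYC antagonist, had 13.7 and 11.5 FPKM against 21.6 and 20.8 FPKM (log2 0.70, adjusted p = 0.0529). PPP1R3C, INSIG2 and NDRG1 had log2 values of 0.61, 0.64 and 0.98. For 44 oxidative phosphorylation genes 22 were higher and 22 lower, COX5B, CYCS, COX7A1 and NDUFB8 having the smallest p values (log2 -0.34, -0.33, 0.88 and -0.30).

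Lists for the systems that the study set out from held no call either. These are RNA levels, whereas the study measured NOX4 as protein, AngII by RT-PCR and immunoassay, and the phosphorylation of p38. Protein and phosphorylation cannot be read from these libraries. Of 10 renin-angiotensin genes 7 were higher and 3 lower, with a median log2 value of 0.11. MAS1 and ATP6AP2 had log2 values of 0.32 and 0.24 beside the 0.41 of AGT. Of 9 NADPH oxidase genes, NOX4 was at 0.63 and 0.76 FPKM against 0.67 and 0.39 FPKM (log2 -0.40, adjusted p = 0.82), with all 4 values under 1 FPKM. NOX1, CYBB, RAC2 and NOX5 had log2 values of -1.16, 1.09, 1.18 and 1.48, all at 2.13 FPKM or less. Of 12 p38 pathway genes, MAPK14, which encodes p38 alpha, had 19.1 and 20.3 FPKM against 21.2 and 20.2 FPKM (log2 -0.0014). MAP2K6, MAPKAPK3, TAB1 and MAPK13 had log2 values of 0.71, 0.26, 0.27 and 0.31.

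Oxidant, alcohol and stress lists were likewise without a call. For 26 antioxidant and NRF2 response genes the median was 0.04, and MT1X, GCLM, MT2A and CAT had log2 values of 1.82, -0.46, 1.22 and 0.32. Among 7 genes of ethanol and acetaldehyde oxidation, ALDH1B1 had 22.1 and 20.6 FPKM against 15.6 and 14.2 FPKM (log2 -0.57, adjusted p = 0.136). ALDH7A1, ALDH9A1 and ADH5 had log2 values of 0.23, 0.17 and 0.09. The unfolded protein response had a median of 0.05, with ERN1 at log2 -1.02, HYOU1 at -0.30, EDEM1 at 0.23 and SEL1L at 0.15. The heat shock list had a median of -0.12, with HSPB2, HSPB3, HSPB1 and DNAJA1 at log2 -0.33, -0.36, -0.39 and -0.25. Of 28 genes of the ATF4 response and amino acid synthesis 19 were lower. CBS, which makes cystathionine, had 32.6 and 37.6 FPKM against 24.2 and 22.3 FPKM (log2 -0.64, adjusted p = 0.0601), and PYCR1, SLC7A5 and ASNS had log2 values of -0.79, -0.77 and 0.53.

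Cell death lists were near the centre of all genes. None of 30 proapoptotic genes passed, with 12 higher, 18 lower and a median log2 value of -0.10. BMF had 6.27 and 8.71 FPKM in the controls and 11.8 and 12.2 FPKM in the co-treated libraries (log2 0.63, adjusted p = 0.158), while DIABLO, BAK1 and TNFRSF10B had log2 values of 0.41, -0.41 and -0.36. None of 9 antiapoptotic genes passed, and BCL2L1, BIRC5, MCL1 and CFLAR had log2 values of -0.32, -0.83, -0.22 and 0.19. Of 18 interferon response genes, IFIT1 had a log2 value of 0.78 (adjusted p = 0.0823), IFI35 of 1.15, STAT2 of 0.27 and IFITM2 of -0.29.

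For 34 mitosis genes the median was -0.23 and 30 were lower, but without control replicate 2 the median was 0.24 and 30 were higher. PTTG1 had 50.9 and 98.2 FPKM in the controls against 57.2 and 38.3 FPKM, with BIRC5, BUB1 and BUB1B at log2 -0.83, -0.36 and -0.39. None of 40 DNA replication genes had an unadjusted p under 0.05, the smallest being those of FEN1, POLA1, E2F1 and CCNE1 (log2 -0.42, -0.29, 0.30 and -0.40). Of 26 homologous recombination genes, RAD54B, RAD50 and RBBP8 had log2 values of -1.05, 0.30 and 0.36. The 63 cytosolic ribosomal protein genes kept within log2 -0.32 and 0.20, with RPS2, RPS15, RPL8 and RPLP2 at -0.32, -0.30, -0.23 and -0.25.

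The co-treated libraries were also tested directly against alcohol alone in the same fit. Of 14926 genes, 2 passed (0.0134%). These were JMJD7-PLA2G4B, described above, and HSPE1-MOB4, a read-through model with 0 counts in both alcohol libraries, which was named after its values were seen. Among the other 53 called genes the adjusted p of this test was 0.314 or more, with RHOB the lowest. A p that misses the threshold does not show that the 2 groups were alike: ABCA1 differed by log2 0.43 (adjusted p = 0.857), STK32A by 1.05 (0.561), IGFBP6 by -0.70 (0.567) and ETV1 by -0.48 (0.636). For a few genes the fitted level of alcohol alone lay beyond the co-treated one, as for MFAP4 (log2 -0.13) and PPP1R1A (log2 -0.17). In both the libraries overlapped, and only alcohol replicate 2 was the higher. MFAP4 had 50.7 and 66.9 FPKM in alcohol alone against 54.05 and 53.57 FPKM, and PPP1R1A 82.8 and 115 FPKM against 84.7 and 91.7 FPKM. Alcohol alone against the controls shares those controls with the present comparison, so only the values of each library are set side by side here.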

How the data were processed

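RNA of 6 libraries was sequenced, and groups follow the labelled treatment. An expected count and an FPKM value per gene were deposited by the authors for every library. The submitters' processing notes name HISAT2 2.0.4, Bowtie2 2.2.5, RSEM 1.2.12 and the build hg38. Genes left out of a library's table were set to 0. The expected counts, of which 33.6% to 34.2% are not whole, were rounded, since edgeR fits counts. R 4.3.3, edgeR 4.0.16 (glmQLFit, TMM, filterByExpr, all 6 libraries), limma 3.58.1 and DESeq2 1.42.0 were used, with Benjamini-Hochberg adjustment at 0.05, two-sided. On simulated counts with 192 changed genes tested, the edgeR fit called 144 of them with the right sign and made 14 false calls. With no gene changed in the simulated counts it made 3 calls. A log2 fold change is from the counts, and a level is the deposited FPKM. The members and lists were chosen with earlier results of these data known. Genes were named as the 15 largest rises and 15 largest falls among the calls whose groups do not overlap, then 4 members of each list by smallest p, and the genes that the study names. Of 926 list symbols 14 were not listed and 1 was found by an older symbol. Promoter windows, overlaps and coordinates came from RefSeq on GRCh38.p14. Whether replicates were separate cultures is not given in the sources used here, so p-values measure only the spread between these libraries. Replicates of a group correlated at r = 0.975 to 0.978 in log2 CPM and differed by more than counting error. Alternatives covered the tool, scaling, filter, libraries in the fit, replicate block, FPKM with 2 pseudocounts (1 and 0.1), a fold and probability rule, and each library left out. Some genes are not reported here.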

Additional observations from a re-analysis of the deposited data

How the results depend on the processing

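Against 54 calls (32 higher, 22 lower), DESeq2 gave 128 (64 and 64), the 4 libraries compared alone 158 (77 and 81), no filter 15 (10 and 5), and a log2 ratio of mean FPKM beyond 1 with a probability over 0.8 gave 178 (85 and 93). With limma, log2(FPKM + 1) gave 2 calls (1 and 1), log2(FPKM + 0.1) gave 3 (2 and 1), and genes with at least 1 FPKM gave 1 (0 and 1), with 1734 genes at an unadjusted p under 0.05. DESeq2-type size factors kept all 54, and at least 10 counts in every library gave 78, within 1.5 times of the main count. Leaving out 1 library gave 2 to 184 calls, 1 to 88 higher and 1 to 96 lower, and the lone library left in a group was assumed to vary like the others. The replicate block gave 136 calls (72 and 64), which include all 54. The deviations of same-numbered libraries correlated at r = -0.0162 for control and co-treated, 0.114 for control and alcohol and 0.0412 for alcohol and co-treated, not over 0.1 in every pair, so the number was not taken to pair them. Of the 54 genes 49 were called by DESeq2, 25 and 17 without control replicate 1 and 2, and 1 and 2 without co-treated replicate 1 and 2. All 54 kept their direction in each fit that tested them, which groups that do not overlap make all but certain. JMJD7-PLA2G4B was the 1 gene called in all of its 14. The causes of these shifts in count were not tested.

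Named genes changed sign under an alternative in 14 values, all far from the threshold. MAPK14 was 0.0022 with at least 10 counts, 0.068, 0.071 and 0.068 under the limma settings above, and -0.0218 to 0.0208 when 1 library was left out. Leaving out 1 library gave log2 values of -0.0784 to 0.666 for DCN, -0.568 to 0.0389 for CNN1, -0.762 to 0.099 for EGFL7, -0.254 to 0.977 for POU5F1, -0.193 to 0.0522 for PODXL, -0.14 to 0.871 for DCX and -0.542 to 0.70 for STMN2. List medians moved by more than their spread in 45 values and by less in 600. Depth limits what can be said of AGTR1, whose counts lie within the 3 that a count of 0 allows.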
